A study of Mus musculus with 12 samples.

Results

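Prdm1, Bhlhe40, Ahr, Nfil3, Id2, Id3, Zeb2 and Ikzf3 encode transcriptional regulators of effector T cell differentiation, and their expression was followed here in allergen-primed CD4+ T cells. The members were chosen by gene symbol, with the Id2 and Id3 pair included, and all 8 were found among the 40840 symbols of the count files. All 8 passed the filter on low counts and were among the 13570 genes tested, Zeb2 through the Day 5 Il6-/- libraries alone.

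To study how IL-6 shapes T cell priming in the airways, OTII cells, CD4+ cells whose transgenic receptor recognizes an ovalbumin peptide, were transferred into B6 (WT) or Il6-/- recipients. The recipients were sensitized intranasally with house dust mite extract (HDM) made high in endotoxin, together with LPS-free ovalbumin, and donor cells were sorted from the mediastinal lymph nodes and profiled by ultra-low-input RNA-seq. There were 4 groups of 3 replicates, which were Day 3 WT, Day 3 Il6-/-, Day 5 WT and Day 5 Il6-/-, where Il6-/- names the host. The transferred OTII cells were not labelled as Il6-deficient, all 4 groups received the allergen, and no unsensitized or naive group was among the libraries analysed. Il6 itself had 0 to 5 reads per library, and since the host carried the deletion these reads cannot check the labels. The labels give blood as the tissue, while the design text and the study's methods give the mediastinal lymph node. The day numbers are those of the labels, and the design text states that the manuscript counts from day 0 instead of day 1. The sources used here do not say whether replicates were separate animals or pools, so the p-values measure only the spread between these samples.

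Naive CD4+ T cells that meet antigen choose between effector fates and fates that keep a follicular or memory-like program, and antagonistic transcription factors stabilize that choice. Blimp-1, the product of Prdm1, and Bcl6 repress each other. Id proteins lack a DNA-binding region and hold E proteins off DNA, so the balance of Id2, Id3 and the E proteins sets how strongly E-box genes are driven in T cells.

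Of the 8 members, 5 had promoter windows in the RefSeq table used (Prdm1, Id2, Id3, Nfil3 and Zeb2; 8 windows of 300 bases). The GCGTG core, to which the aryl hydrocarbon receptor encoded by Ahr binds with its partner Arnt, was searched on both strands and was found in 32.4% of all 32851 windows. It occurred in 4 of the 8 member windows, those of Prdm1, Id3 and 2 overlapping windows of Zeb2. The Prdm1 sequence is shown because Prdm1 and Ahr both fell between the days in both hosts, as 27.1% of all genes did in WT and 30.1% in Il6-/-. The bases upstream of its start site that lie in no annotated exon are on GRCm39 chr10:44334781-44334994, minus strand, located by an exact match of the RefSeq sequence, whose table is of GRCm38.p6. The capitals mark the 2 GCGTG cores, which lie on the opposite strand and so read CACGC here, with their first bases 109 and 77 bases upstream of the start site.
Prdm1 upstream: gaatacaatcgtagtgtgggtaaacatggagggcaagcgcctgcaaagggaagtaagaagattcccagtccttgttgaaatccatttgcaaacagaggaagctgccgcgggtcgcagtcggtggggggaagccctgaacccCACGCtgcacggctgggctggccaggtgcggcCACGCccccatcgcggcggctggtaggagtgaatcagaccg
These letters are a description of the window, and binding was not measured. A link between the core and the fall of Prdm1 was not tested. The E-box CACGTG, the kind of site that Bhlhe40 binds, was in 7.15% of all windows and in 0 of the 8. The STAT motif TTCNNNGAA was in 8.3% of all windows and in 2 of the 8, both of them the overlapping windows of Zeb2.

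The libraries held 16125947 to 26111657 reads on genes (median 19727354). Reads on genes made up 60.2% to 62.2% of the tallied reads on Day 3 and 52.5% to 56.7% on Day 5. Summed markers of CD4+ T cells (8 genes, among them Cd3e and Cd4) ran from 5559 to 9734 CPM (reads of a gene scaled to a fixed total per library, after TMM scaling), and no gene of that list was at 0 in a group. The sums were 5956 to 6556 CPM in Day 3 WT and 5559 to 5656 CPM in Day 3 Il6-/-. On Day 5 they were 9417 to 9734 CPM in WT and 8291 to 9091 CPM in Il6-/-, so that hosts and days stood apart. Against this, 8 B cell markers summed to 6.55 to 16.7 CPM, 5 plasma cell markers to 2.15 to 6.02 CPM, 10 myeloid markers to 98.9 to 161 CPM, 8 epithelial and stromal markers to 83.7 to 165 CPM, 8 NK and CD8 cell markers to 63 to 114 CPM and 6 regulatory T cell markers to 307 to 449 CPM. In bulk samples fewer cells of a type and less RNA per cell cannot be told apart.

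The comparisons used edgeR's quasi-likelihood test over 13570 genes, with Benjamini-Hochberg adjustment over all of them, and a gene passed at an adjusted p under 0.05. On Day 3, 2 members were higher in Il6-/- than in WT hosts (7.52% of all genes were) and 1 was lower (6.19%). The libraries of the 2 hosts did not overlap for 4 of the 8 members, beside 36.2% of all genes. On Day 5, 0 members were higher (1.27% of all genes; 1, Zeb2, at an unadjusted p under 0.05 in edgeR) and 1 was lower (3.35%), and 2, Id2 and Zeb2, did not overlap (19.6%). DESeq2 and limma-voom each called 1 member on Day 5, and edgeR with the replicate number as a block called 2, out of 1592 genes in place of 626. The genotype effect itself differed between the days for 1 member, which was more negative on Day 5 (3.12% of all genes were, while 1.8% were more positive). From Day 3 to Day 5 in WT hosts, 3 members rose (29.5%) and 2 fell (27.1%), and 5 did not overlap (63.3%). In Il6-/- hosts 4 passed upward (30.4%) and 2 fell (30.1%), and 6 did not overlap (65.8%). The upward count and the non-overlapping counts of Day 5 and of the Il6-/- days include Zeb2, which reached the filter only in the group where it was high, so that its part in them is no support. With so many genes changing over time, the members' shares between days stood near those of the transcriptome. The counts of the other gene lists below stand beside these same shares of all genes. The main split of calls on Day 3 was 1021 genes higher and 840 lower, which without scaling beyond library size became 703 and 1088. Likewise the split went from 172 and 454 to 273 and 396 on Day 5, from 244 and 424 to 420 and 228 for the interaction, and from 4122 and 4089 to 5089 and 3340 between the days in Il6-/- hosts, where the median of all genes moved from 0.09 to 0.24 (log2).

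**Figure D1:**
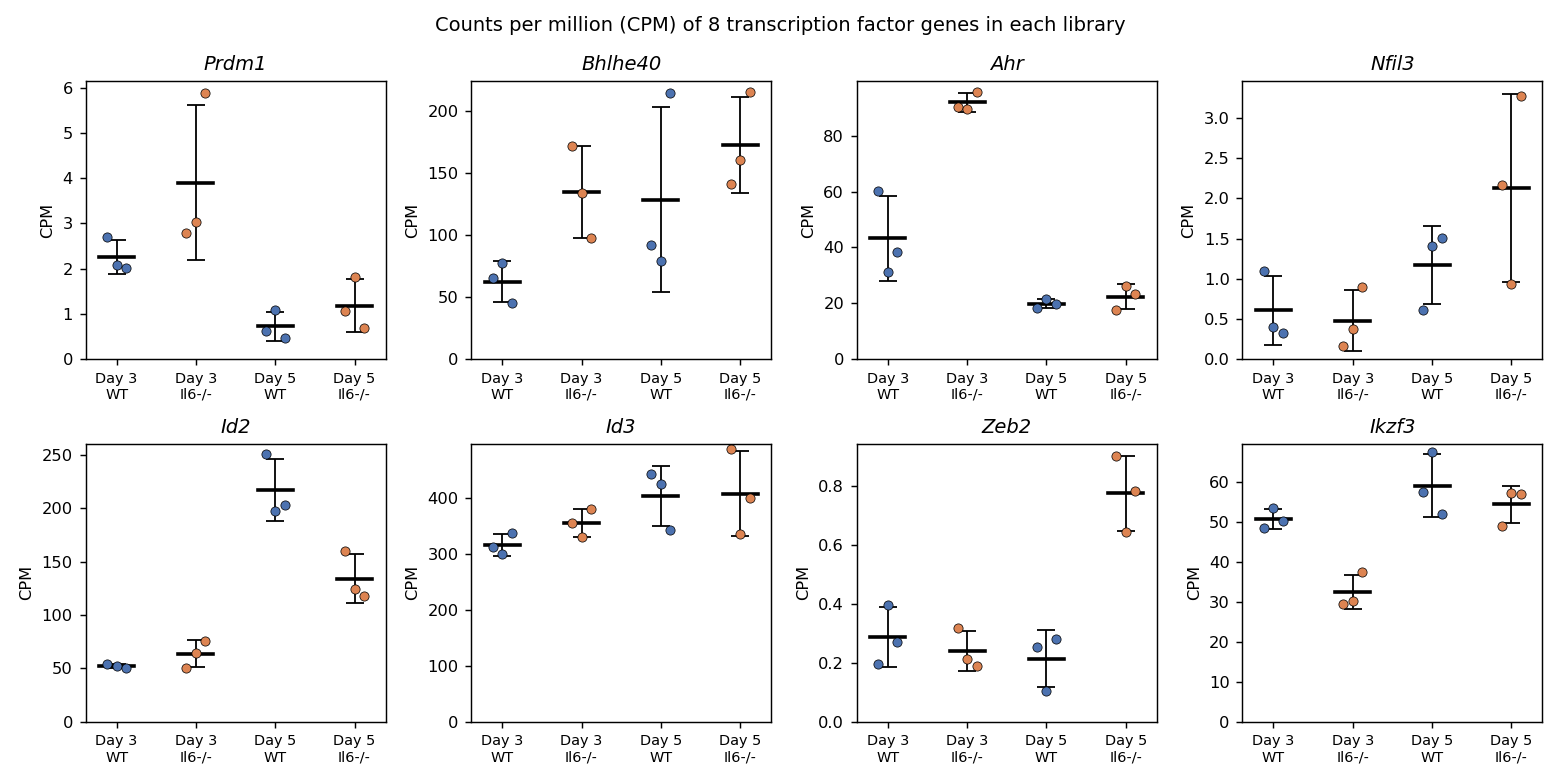
CPM (reads scaled to a fixed library total after TMM, linear axis from 0) of each member in the 12 libraries, by day and host; each point is 1 library, the line is the mean and the bar 1 SD (n = 3). Ahr and Bhlhe40 were higher in Il6-/- hosts on Day 3, Ikzf3 was lower there, and Id2 was lower in Il6-/- hosts on Day 5.

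Ahr, whose product is a ligand-activated factor with roles in IL-22 and IL-17 producing T cells, was higher in Il6-/- than in WT hosts on Day 3 and fell in both hosts by Day 5. It lies on chromosome 12 (GRCm39, 35547973 to 35585057, minus strand). On Day 3 it stood at 60.4, 31.2 and 38.4 CPM in WT replicates 1, 2 and 3 and at 90.5, 89.8 and 95.8 CPM in Il6-/- replicates. The lowest Il6-/- library was above the highest WT library, and WT replicate 1 stood above the other WT libraries. The difference was 2.12-fold (log2 1.08, SE 0.19, adjusted p = 0.0016). By Day 5 the WT libraries had 18.2, 21.5 and 19.6 CPM and the Il6-/- libraries 17.5, 26.3 and 23.2 CPM, so that the hosts overlapped. The log2 difference on Day 5 was 0.17 (95% interval -0.25 to 0.60, adjusted p = 0.69). Ahr fell between the days in both hosts, by 1.14 on the log2 scale in WT (SE 0.20, adjusted p = 0.00016) and by 2.04 in Il6-/- (SE 0.20, adjusted p = 4.5e-07). All Day 5 libraries lay below all Day 3 libraries. The genotype effect was 0.91 lower on Day 5 than on Day 3 (log2 -0.91, SE 0.27), which did not pass (adjusted p = 0.070). It passed with DESeq2 (log2 -0.89, adjusted p = 0.021) and without the filter on low counts (adjusted p = 1.2e-05). Of the 12 fits without 1 library it passed in 1, that without Day 3 WT replicate 1 (log2 -1.23, adjusted p = 0.0051). With the replicate number as a block within each day it also passed (log2 -0.97, adjusted p = 0.0097), though same-numbered libraries did not deviate together on Day 3. Over all alternatives the adjusted p ran from 1.2e-05 to 0.16.

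Of 6 genes that the aryl hydrocarbon receptor is known to drive, 3 had enough reads to be tested. On Day 3, 0 of these 3 were higher in edgeR, also at an unadjusted p under 0.05, and 1 was lower in Il6-/- hosts (1 called by DESeq2 and 1 by limma-voom), with a median log2 difference of -0.71 beside 0.01 over all genes. Tiparp, which encodes a member of the poly-ADP-ribose polymerase family that restrains the receptor, had 11.5, 11.6 and 11.5 CPM in Day 3 WT and 8.55, 10.1 and 9.62 CPM in Day 3 Il6-/- libraries. Its log2 difference was -0.29 on Day 3 (adjusted p = 0.28) and -0.25 on Day 5 (adjusted p = 0.42), neither of which passed. Il22, the cytokine gene of the list, had 40 to 42 reads in the Day 3 WT libraries, 34, 11 and 5 reads in Day 5 WT replicates 1, 2 and 3 (mean 0.846 ± 0.785 CPM, SD, n = 3), and 0 reads in every Il6-/- library of both days. It passed the filter on low counts through WT libraries alone, the host in which it was high. Its part in the Day 3 median and in the count of lower genes is therefore no support. This holds for edgeR, DESeq2 and limma-voom, which shared that filter. As a description, Il22 was at least 12.3-fold lower in Il6-/- hosts on Day 3 and at least 4.81-fold lower on Day 5. This takes 3 reads per library as the limit that 0 allows, and counting error only is covered. Without Day 5 WT replicate 1 the Day 5 bound was 2.29-fold and the call was lost (adjusted p = 0.052), as it was without Day 5 Il6-/- replicate 2 or 3 (adjusted p = 0.055 and 0.058), and DESeq2 gave Il22 no adjusted p on Day 5. The direction of Il22 was opposite to that of Ahr on Day 3. Nqo1, a quinone reductase gene, fell between the days in WT hosts (log2 -3.14, SE 0.56, adjusted p = 0.00020). In Il6-/- hosts its log2 change was -1.21 (adjusted p = 0.053), which passed with DESeq2 (adjusted p = 0.028) and limma-voom (log2 -1.69, adjusted p = 0.021). It also passed without the filter on low counts (adjusted p = 0.0034) and in 2 of 12 fits without 1 library. Arnt, the partner of the receptor, passed in neither host comparison (log2 -0.07 and 0.21; adjusted p = 0.78 and 0.36).

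Bhlhe40, a basic helix-loop-helix repressor that restrains Il10 and sustains inflammatory cytokine production in T cells, was 2.15-fold higher in Il6-/- hosts on Day 3. The gene is on chromosome 6 (108636626 to 108644502, plus strand) and its exons overlap those of 0610040F04Rik, which had 0 to 5 reads. On Day 3 Bhlhe40 stood at 65.3, 77.2 and 44.8 CPM in WT and at 172, 134 and 98.0 CPM in Il6-/- libraries. The hosts did not overlap, and Il6-/- replicate 1 was the highest of all and replicate 3 the lowest of each host. The log2 difference of 1.11 (SE 0.32, adjusted p = 0.031) was close to the threshold. It no longer passed without Day 3 WT replicate 1 (adjusted p = 0.063) or replicate 3 (log2 0.92, adjusted p = 0.13), nor without Day 3 Il6-/- replicate 1 (log2 0.89, adjusted p = 0.14) or replicate 2 (adjusted p = 0.076), nor with DESeq2 (adjusted p = 0.061), within a range of 7.8e-25 to 0.14 over all alternatives, the lowest without the filter on low counts. On Day 5 the values were 92.1, 79.3 and 214 CPM in WT and 141, 161 and 216 CPM in Il6-/-. WT replicate 3 stood beside the highest Il6-/- library, and replicate 3 was the highest library of both hosts. The Day 5 difference was 0.42 (SE 0.31, adjusted p = 0.50), and 0.54 with the replicate number as a block (adjusted p = 0.030); without Day 5 WT replicate 3 it was 1.01 (adjusted p = 0.019), and over all alternatives the adjusted p ran from 0.00069 to 0.84. Bhlhe40 rose between the days in WT hosts (log2 1.04, SE 0.32, adjusted p = 0.011), a call that was lost without Day 5 WT replicate 3 (log2 0.45, adjusted p = 0.12) and without Day 3 WT replicate 3 (adjusted p = 0.055), with a range of 8.5e-21 to 0.12. In Il6-/- hosts its log2 change was 0.36 (95% interval -0.30 to 1.02, adjusted p = 0.33).

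Il10, which Bhlhe40 is known to repress and Blimp-1 and Nfil3 to promote, was higher in Il6-/- hosts on Day 3 from very few reads. It had 1 to 5 reads per library in Day 3 WT (0.195, 0.0989 and 0.0543 CPM) and 7 to 15 in Day 3 Il6-/- (0.792, 0.583 and 0.332 CPM). The hosts did not overlap, and the log2 difference was 2.16 (SE 0.63, adjusted p = 0.032). That call was lost with limma-voom (adjusted p = 0.064), without the filter on low counts (adjusted p = 0.078) and without Day 3 WT replicate 2 or 3 or Day 3 Il6-/- replicate 1 or 2 (adjusted p from 0.085 to 0.14). On Day 5 Il10 stood at 0.356, 0.623 and 0.611 CPM in WT and at 1.27, 0.762 and 1.20 CPM in Il6-/-, which did not pass (log2 1.01, adjusted p = 0.29). Among 7 tested outputs of the circadian clock, a loop in which Bhlhe40 and Nfil3 take part as repressors, 1 was higher and 0 were lower on Day 3, and 0 passed on Day 5 in edgeR, in DESeq2 or in limma-voom, 0 also at an unadjusted p under 0.05, with a median log2 difference of 0.36 on Day 3 and -0.36 on Day 5. The Day 3 call was Per2 (log2 1.40, SE 0.30, adjusted p = 0.0060). The 7 outputs had a median change of 1.37 between the days in WT hosts, beside 0.09 over all genes. Of these 7, 4 rose, beside 29.5% of all genes, and 0 fell. They were Dbp (log2 2.12), Tef (1.57), Per1 (1.37) and Per2 (1.29). In Il6-/- hosts 3 rose, beside 30.4% of all genes (median 0.58 beside 0.09). These 3 were Dbp (1.07), Per1 (1.28) and Tef (0.73). The Dbp call was lost without Day 3 Il6-/- replicate 3 or Day 5 Il6-/- replicate 1 (adjusted p = 0.063 and 0.12).

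Prdm1, which encodes Blimp-1, was a low gene in all groups and fell from Day 3 to Day 5 in both hosts. It is on chromosome 10 (44313171 to 44404497, minus strand) and had 10 to 124 reads per library. On Day 3 it stood at 2.69, 2.08 and 2.01 CPM in WT and at 2.80, 3.02 and 5.88 CPM in Il6-/-. The hosts did not overlap, but the lowest Il6-/- library stood just above the highest WT library and Il6-/- replicate 3 alone was far higher. The log2 difference was 0.78 (95% interval -0.08 to 1.65, adjusted p = 0.24), and 0.36 without that library. On Day 5 Prdm1 had 0.611, 1.09 and 0.470 CPM in WT and 1.06, 1.82 and 0.677 CPM in Il6-/-, which overlapped (log2 0.70, adjusted p = 0.45). Prdm1 was higher in Il6-/- in each of the 3 same-numbered pairs of Day 5, and with the replicate number as a block the log2 difference was 0.69, which did not pass (adjusted p = 0.34). In each host replicate 2 was the highest of the Day 5 libraries. Between the days Prdm1 fell by 1.65 on the log2 scale in WT (SE 0.45, adjusted p = 0.0060) and by 1.73 in Il6-/- (SE 0.43, adjusted p = 0.0028), and it fell in every fit that left out 1 library.

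Of 5 genes that Blimp-1 is known to repress, 3 were lower in Il6-/- hosts on Day 3, beside 6.19% of all genes. The remaining 2 did not pass, and the median log2 difference was -0.32 beside 0.01 over all genes. The lower genes were Bcl6, which encodes the opposing repressor of the follicular helper program, Cxcr5, the follicular homing receptor, and Tcf7. The Tcf7 call was lost without Day 3 WT replicate 2 (log2 -0.25, adjusted p = 0.054). Bcl6 stood at 35.8, 38.9 and 40.8 CPM in Day 3 WT and at 17.0, 19.3 and 15.7 CPM in Day 3 Il6-/-, well apart (log2 -1.15, SE 0.16, adjusted p = 0.00038). By Day 5 it was at 71.3, 99.1 and 101 CPM in WT and at 66.2, 101 and 97.9 CPM in Il6-/-, with replicate 1 the lowest in both hosts and a log2 difference of -0.04 (adjusted p = 0.94). Cxcr5 was 1.45 lower on the log2 scale on Day 3 (log2 -1.45, adjusted p = 7.1e-05), and its log2 difference was 0.10 on Day 5 (adjusted p = 0.79). On Day 5, 0 of the 5 genes passed in edgeR, in DESeq2 or in limma-voom, and 1 was lower at an unadjusted p under 0.05 in edgeR (median -0.04 beside 0.01). From Day 3 to Day 5, 4 of the 5 rose in each host, beside 29.5% of all genes in WT and 30.4% in Il6-/-. The risen genes were Bcl6, Tcf7 and Il2 in both hosts, Id3 in WT and Cxcr5 in Il6-/-. The medians were 0.35 in WT and 1.53 in Il6-/- beside 0.09 over all genes in each. Bach2, a repressor that keeps cells from effector differentiation and whose exons overlap those of the antisense gene Bach2os, had log2 host differences of -0.39 on Day 3 (adjusted p = 0.27) and -0.64 on Day 5 (adjusted p = 0.097), which passed with the replicate number as a block (log2 -0.66, adjusted p = 0.013). The Day 5 difference also passed with DESeq2 (log2 -0.61, adjusted p = 0.037), without the filter on low counts (adjusted p = 1.2e-05) and in 2 of 12 fits without 1 library. Bach2 rose between the days in both hosts (log2 1.17 in WT and 0.92 in Il6-/-, adjusted p = 0.00025 and 0.0017).

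Nfil3, a basic leucine zipper factor needed for innate lymphoid cells and active in T helper cytokine control, passed only between the days in Il6-/- hosts. It is on chromosome 13 (53121245 to 53137010, minus strand) and had 3 to 63 reads per library; the overlapping Gm40950 had 0. On Day 3 its values were 1.09, 0.396 and 0.326 CPM in WT and 0.158, 0.371 and 0.900 CPM in Il6-/-, fully interleaved (log2 -0.36, adjusted p = 0.80), and the sign turned without Day 3 WT replicate 1 (log2 0.41). On Day 5 it stood at 0.611, 1.40 and 1.50 CPM in WT and at 2.17, 0.938 and 3.28 CPM in Il6-/-. Replicates 1 and 3 were above every WT library and replicate 2 was among them, and the log2 difference of 0.86 did not pass (95% interval -0.45 to 2.17, adjusted p = 0.48). The rise between the days in Il6-/- hosts was 4.38-fold (log2 2.13, SE 0.66, adjusted p = 0.012), and it no longer passed without Day 3 Il6-/- replicate 1 (adjusted p = 0.0501) or Day 5 Il6-/- replicate 3 (adjusted p = 0.066), within a range of 0.00083 to 0.066. In WT hosts the log2 change was 0.91 (95% interval -0.47 to 2.30, adjusted p = 0.24).

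The summed level of 8 immediate early and heat shock genes, which respond to cell handling as well as to stimulation, was highest in the Il6-/- libraries of Day 5 that also held the most Nfil3, replicates 1 and 3. It was 1744, 691 and 1457 CPM in Day 5 Il6-/- replicates 1, 2 and 3 and 993, 661 and 841 CPM in Day 5 WT, where the library with the highest sum had the least Nfil3. On Day 3 it ran from 365 to 613 CPM. All 8 genes of this list rose between the days in Il6-/- hosts, beside 30.4% of all genes. In WT hosts 4 did (Egr1, Fos, Fosb and Jun), beside 29.5% of all genes. Between the hosts, 2 of the 8 were lower in Il6-/- on Day 3, Jun (log2 -1.15, adjusted p = 0.030) and Egr1 (log2 -0.46, adjusted p = 0.018). On Day 5, 2 were higher and Egr1 was again lower (log2 -0.58, adjusted p = 0.011). The higher genes were Dnajb1 (log2 0.64, adjusted p = 0.045) and Hspa1a. Hspa1a, an inducible chaperone gene, was higher in Il6-/- hosts (log2 3.46, SE 0.94, adjusted p = 0.048), which was lost with limma-voom (adjusted p = 0.057) and without any 1 of 8 libraries, all but the Day 3 WT libraries and Day 5 Il6-/- replicate 2 (adjusted p from 0.067 to 0.15). Without 1 library the Dnajb1 call was lost in 9 of 12 fits (adjusted p from 0.053 to 0.16), the Jun call in 4 (0.072 to 0.14), and the Egr1 call in 4 on Day 3 (0.052 to 0.12) and 2 on Day 5 (0.058 each). The part of these genes in the values of Nfil3 and Zeb2 was not tested.

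**Figure D2:**
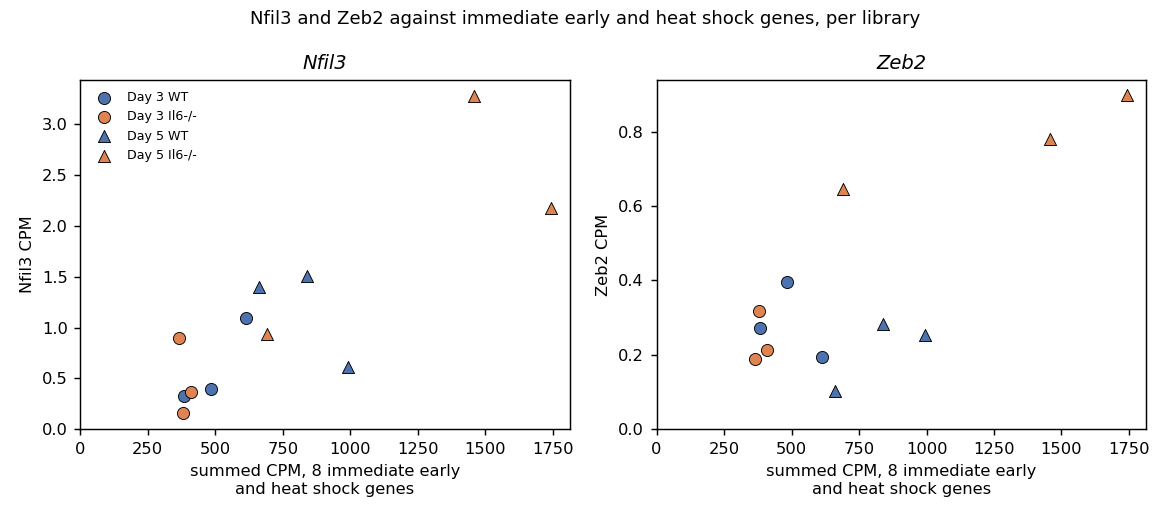
CPM of Nfil3 (left) and Zeb2 (right) against the summed CPM of 8 immediate early and heat shock genes, both axes linear from 0; each point is 1 of 12 libraries. Day 5 Il6-/- replicates 1 and 3 lie far to the right, at 1744 and 1457 CPM, and hold the highest values of both genes.

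Zeb2, a zinc finger repressor that drives terminal effector differentiation of CD8 T cells and is active in NK and myeloid cells, was the lowest member in every group. It is on chromosome 2 (44873644 to 45007464, minus strand) and had 2 to 17 reads per library, so its values rest on very few molecules. On Day 3 it had 0.195, 0.396 and 0.271 CPM in WT and 0.317, 0.212 and 0.190 CPM in Il6-/- libraries. On Day 5 the WT libraries had 0.255, 0.104 and 0.282 CPM and the Il6-/- libraries 0.900, 0.645 and 0.781 CPM. All 3 Day 5 Il6-/- libraries, with 11 to 17 reads, stood above the other 9 libraries, with 2 to 8. The Day 5 host difference was 3.54-fold (log2 1.82, SE 0.56), which did not pass (adjusted p = 0.080) and passed in no alternative run (adjusted p from 0.071 to 0.30). Zeb2 reached the filter on low counts in these 3 libraries alone, so it was tested only through the group in which it was high, and its folds against that group are given as a description. Between the days in Il6-/- hosts its log2 change was 1.68 (SE 0.56, adjusted p = 0.017), below the threshold but not without the filter on low counts (adjusted p = 0.15) nor without each of 3 libraries, Day 3 Il6-/- replicates 2 and 3 and Day 5 Il6-/- replicate 1 (adjusted p from 0.063 to 0.073), within a range of 0.011 to 0.15. In WT hosts the log2 change was -0.39 (95% interval -1.68 to 0.89, adjusted p = 0.60). The antisense gene Zeb2os overlaps Zeb2 and had 0 to 4 reads; the counting did not use strand.

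The summed level of the myeloid markers overlapped between the hosts on Day 5. It was 117 to 161 CPM in WT and 123 to 128 CPM in Il6-/-, Clec9a was at 0 in both groups, and 0 of 6 tested markers passed in edgeR, in DESeq2 or in limma-voom, 0 also at an unadjusted p under 0.05. The 8 B cell markers summed to 9.04 to 11.6 CPM in Day 5 WT and 12.5 to 16.7 CPM in Day 5 Il6-/-, which did not overlap. Of 4 tested, 0 passed in edgeR or limma-voom and DESeq2 called 1. At an unadjusted p under 0.05 in edgeR, 2 were higher in Il6-/- and 0 lower. The 8 NK and CD8 cell markers summed to 91.6 to 111 CPM in Day 5 WT and 86.3 to 101 CPM in Day 5 Il6-/-. Of 5 tested, 1 was lower in Il6-/- in edgeR, and DESeq2 and limma-voom each called 1. Between the days 5 of the 6 tested myeloid markers rose in Il6-/- hosts (median log2 1.19), where 30.4% of all genes did. In WT hosts 3 of the 6 rose (median log2 0.73), beside 29.5% of all genes. The part of these cells in the Zeb2 values was not tested. Of 6 genes of terminal effector cells, 3 could be tested, and 0 passed between the hosts on either day in edgeR, in DESeq2 or in limma-voom, with 1 lower on Day 3 and 0 on Day 5 at an unadjusted p under 0.05 (median log2 difference -0.35 on Day 3 and -0.47 on Day 5). Cx3cr1, a chemokine receptor of cytotoxic effectors, rose between the days in both hosts (log2 1.30 in WT and 1.18 in Il6-/-; adjusted p = 0.018 and 0.031), though in each host the call was lost without 1 of several libraries, the WT value falling to 0.62 without Day 5 WT replicate 3 (adjusted p = 0.20) and the Il6-/- value to 0.92 without Day 3 Il6-/- replicate 2 (adjusted p = 0.12).

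Id2, the Id family member tied to effector fates, rose in both hosts between the days and was lower in Il6-/- hosts on Day 5. It lies on chromosome 12 (25143798 to 25147282, minus strand), and the overlapping Gm36287 had 0 to 5 reads. On Day 3 Id2 stood at 54.0, 52.5 and 50.6 CPM in WT and at 50.7, 64.8 and 75.8 CPM in Il6-/-. The hosts overlapped through Il6-/- replicate 1, and the log2 difference of 0.28 did not pass (95% interval -0.02 to 0.59, adjusted p = 0.22). On Day 5 it stood at 251, 198 and 203 CPM in WT and at 160, 124 and 118 CPM in Il6-/-. The highest Il6-/- library was below the lowest WT library, and replicate 1 was the highest of both hosts. The Day 5 level was 1.62-fold lower in Il6-/- (log2 -0.70, SE 0.14, adjusted p = 0.011). This call was lost without Day 5 WT replicate 1 (adjusted p = 0.062), Day 5 Il6-/- replicate 2 (adjusted p = 0.056) or Day 5 Il6-/- replicate 3 (adjusted p = 0.059), with log2 values from -0.58 to -0.84 over all such fits and adjusted p from 5.8e-10 to 0.062 over all alternatives.

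The rise of Id2 between the days was 4.15-fold in WT (log2 2.05, SE 0.15, adjusted p = 4.4e-08) and 2.10-fold in Il6-/- (log2 1.07, SE 0.14, adjusted p = 1.1e-05). The difference between these rises was itself tested and passed (log2 -0.98, SE 0.20, adjusted p = 0.014), as it did in each fit without 1 library (adjusted p from 0.0051 to 0.043). Id2 was the only member for which the genotype effect differed between the days in the main analysis.

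**Figure D3:**
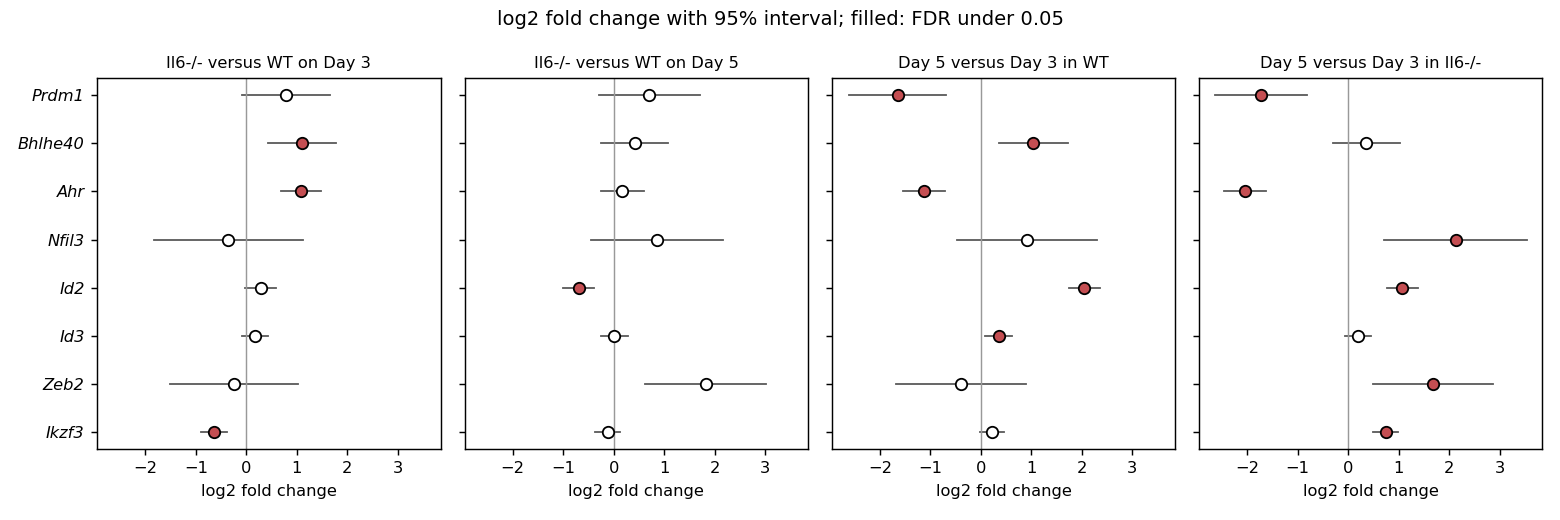
log2 fold changes of the 8 members in the 4 pairwise comparisons (points) with their 95% intervals (lines); filled points passed at an adjusted p under 0.05, and Zeb2 was tested only through the Day 5 Il6-/- libraries. Id2 lies at 2.05 for the days in WT and at 1.07 in Il6-/-, and the intervals of the low genes Nfil3 and Zeb2 are the widest.

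Id3, the other Id gene among the members, tied to naive, follicular and memory-like T cells, changed little. It is on chromosome 4 (135870808 to 135873066, plus strand). On Day 3 it stood at 312, 299 and 337 CPM in WT and at 354, 330 and 380 CPM in Il6-/-. On Day 5 the values were 442, 425 and 342 CPM in WT and 487, 336 and 399 CPM in Il6-/-. The hosts overlapped on both days, with log2 differences of 0.17 (95% interval -0.09 to 0.43, adjusted p = 0.43) and 0.01 (95% interval -0.24 to 0.27, adjusted p = 0.97). Id3 rose 1.28-fold between the days in WT hosts (log2 0.35, SE 0.12, adjusted p = 0.023). That call was lost when any of 4 libraries was left out, Day 3 WT replicates 1 and 2 and Day 5 WT replicates 1 and 2 (adjusted p from 0.061 to 0.097), within a range of 0.0058 to 0.097. In Il6-/- hosts its log2 change was 0.20 (adjusted p = 0.17), and 0.35 without scaling beyond library size (adjusted p = 0.017), with adjusted p from 0.015 to 0.74 over all alternatives.

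Within each library the Id2 reads came to 15.0% to 17.6% of the Id3 reads in Day 3 WT and to 14.3% to 20.0% in Day 3 Il6-/-. On Day 5 they came to 46.6% to 59.5% in WT and to 29.5% to 37.0% in Il6-/-. The mean log2 ratio of Id2 to Id3 was -2.59 ± 0.12 in Day 3 WT, -2.49 ± 0.27 in Day 3 Il6-/-, -0.89 ± 0.19 in Day 5 WT and -1.60 ± 0.16 in Day 5 Il6-/- (SD, n = 3). The hosts overlapped on Day 3 and stood apart on Day 5, where every WT library had the larger share of Id2. The ratio is of reads, not of reads per base, and needs no scaling between libraries.

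**Figure D4:**
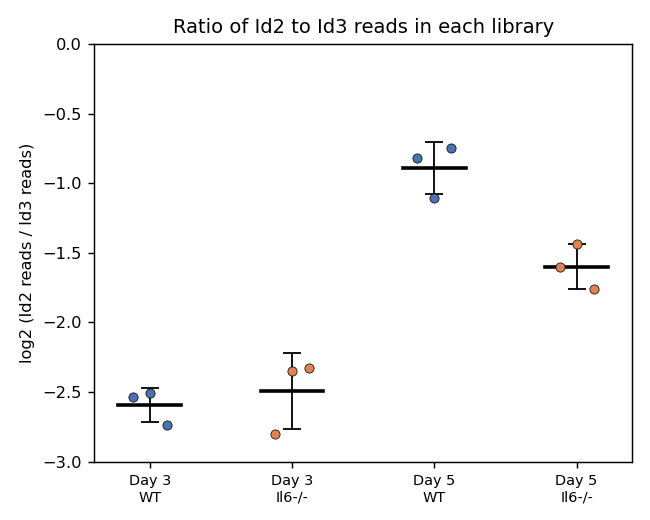
log2 of the ratio of Id2 to Id3 reads in each of 12 libraries (points), with the mean (line) and SD (bar) of each group (n = 3). The ratio lies near -2.5 on Day 3 and rises to -0.89 in WT and -1.60 in Il6-/- hosts on Day 5.

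Tcf3, which encodes the E proteins of the E2A type that Id2 and Id3 bind, moved in the same direction as Id2 between the hosts on Day 5. It stood at 114, 99.3 and 101 CPM in Day 3 WT and at 134, 128 and 126 CPM in Day 3 Il6-/- (log2 0.30, SE 0.12, adjusted p = 0.11). On Day 5 the WT libraries had 106, 99.3 and 71.2 CPM and the Il6-/- libraries 52.6, 59.5 and 54.2 CPM. The hosts did not overlap on either day, with Il6-/- above WT on Day 3 and below it on Day 5 (log2 -0.74, SE 0.12, adjusted p = 0.0038). The genotype effect differed between the days (log2 -1.04, SE 0.17, adjusted p = 0.0053). With the replicate number as a block its Day 3 difference had an adjusted p of 0.037, though same-numbered libraries did not deviate together on Day 3. Tcf4, which encodes the E protein E2-2, had 2.77, 3.66 and 3.04 CPM in Day 3 WT and 9.98, 9.60 and 7.58 CPM in Day 3 Il6-/- (log2 1.52, SE 0.21, adjusted p = 0.00036), and its Day 5 difference was 0.20 (adjusted p = 0.67). Tcf12, which encodes HEB, had log2 differences of -0.03 and -0.01, and the sign of the latter turned with other scalings.

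Ikzf3, which encodes Aiolos of the Ikaros zinc finger family, was lower in Il6-/- hosts on Day 3, and its libraries overlapped between the hosts on Day 5. It is on chromosome 11 (98355728 to 98436857, minus strand). On Day 3 it stood at 48.5, 53.5 and 50.3 CPM in WT and at 29.6, 30.4 and 37.5 CPM in Il6-/-. The hosts were well apart, and the level was 1.56-fold lower in Il6-/- (log2 -0.64, SE 0.12, adjusted p = 0.0022), a call kept in every fit without 1 library (adjusted p from 0.0013 to 0.017). On Day 5 the WT libraries had 57.7, 67.7 and 52.2 CPM and the Il6-/- libraries 49.1, 57.4 and 57.0 CPM, which overlapped (log2 -0.12, 95% interval -0.37 to 0.13, adjusted p = 0.63). Ikzf3 rose between the days in Il6-/- hosts (log2 0.74, SE 0.12, adjusted p = 6.2e-05), and in WT its log2 change was 0.22 (95% interval -0.03 to 0.47, adjusted p = 0.12). The genotype effect was 0.52 higher on Day 5 than on Day 3 (SE 0.17, adjusted p = 0.082). Of the 12 fits without 1 library, 1 passed. The effect passed with DESeq2 (log2 0.55, adjusted p = 0.028), without scaling beyond library size (adjusted p = 0.043) and without the filter on low counts (adjusted p = 0.026). With the replicate number as a block it was 0.53 (adjusted p = 0.030), though same-numbered libraries did not deviate together on Day 3. Over all alternatives the adjusted p ran from 0.026 to 0.19.

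Aiolos is also a B cell factor, so the B cell markers are given beside it. They summed to 6.55 to 8.85 CPM in Day 3 WT and to 13.7 to 14.6 CPM in Day 3 Il6-/-, and single markers differed in direction. Ebf1 was at 0 in both groups and Ms4a1 at 0 in Il6-/-. Cd22 was the marker that was higher (log2 3.03, SE 0.44, adjusted p = 0.00044), and Pax5 was lower (log2 -2.26, SE 0.68, adjusted p = 0.039; 0.075 to 0.11 without any 1 of 5 Day 3 libraries, all but Il6-/- replicate 2). The NK and CD8 cell markers summed to 63 to 74.6 CPM in Day 3 WT and 83.7 to 114 CPM in Day 3 Il6-/-, with Klra8 at 0 in both groups and Klrb1c the marker that passed (log2 2.11, SE 0.18, adjusted p = 7.7e-06). Their part in the Day 3 values of the members was not tested.

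Of 14 relatives and binding partners of the members, 9 could be tested. On Day 3, 1 was higher and 2 were lower in Il6-/- hosts (median log2 -0.07 beside 0.01 over all genes), and on Day 5 1 was lower, Tcf3, and the remaining 8 did not pass (median -0.01 beside 0.01). The Day 3 calls were Tcf4 and, below 2-fold, Ikzf1 (log2 -0.31, adjusted p = 0.026) and Ikzf2 (log2 -0.44, adjusted p = 0.013), which encode Ikaros and Helios. The Ikzf1 call was lost without any 1 of 5 Day 3 libraries, all but WT replicate 1 (adjusted p from 0.061 to 0.11), and the Ikzf2 call without Day 3 WT replicate 3 or Day 3 Il6-/- replicate 1 or 2 (adjusted p from 0.054 to 0.072). Ikzf4, which encodes Eos, rose between the days by 2.61 on the log2 scale in WT (SE 0.37, adjusted p = 2.3e-05) and by 2.44 in Il6-/- (SE 0.37, adjusted p = 3.6e-05).

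Of 12 other regulators of T helper fates, 2 were higher and 5 were lower in Il6-/- hosts on Day 3 (median log2 -0.30 beside 0.01), and on Day 5, 1 was higher and 3 were lower (median -0.11 beside 0.01). Among the Day 3 calls were Tbx21 and Gata3 upward and Bcl6, Maf, Tcf7 and Foxo1 downward, and among the Day 5 calls were Gata3 upward and Foxo1 and Batf downward. The Gata3 and Foxo1 differences were between -0.35 and 0.35, and without 1 library the Gata3 call was lost in 5 of 12 fits on Day 3 and 8 on Day 5, and the Foxo1 call in 7 and 4. The Day 5 call of Batf (log2 -0.26, adjusted p = 0.048) was lost in 11 of the 12 such fits, with other size factors, without scaling, without the filter on low counts and with only the groups compared (adjusted p from 0.060 to 0.21). Tbx21, the Th1 regulator T-bet, stood at 2.65, 2.32 and 2.71 CPM in Day 3 WT and at 12.1, 16.3 and 14.7 CPM in Day 3 Il6-/- (log2 2.49, SE 0.29, adjusted p = 8.7e-05). The Day 5 log2 difference of Tbx21 was 1.02 (adjusted p = 0.061), and 1.08 with the replicate number as a block (adjusted p = 0.021). It also passed with DESeq2 (adjusted p = 0.0061), with other size factors (0.04999), without scaling beyond library size (0.047) and without the filter on low counts (0.0029). Of the 12 fits without 1 library, 1 passed. Between the days 6 of the 12 rose and 3 fell in WT (median 0.29 beside 0.09), and 7 rose and 4 fell in Il6-/- (median 0.33 beside 0.09). Maf, which promotes Il21 and Il10, rose between the days in Il6-/- hosts by 1.72 on the log2 scale (SE 0.20, adjusted p = 2.8e-06).

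**Figure D5:**
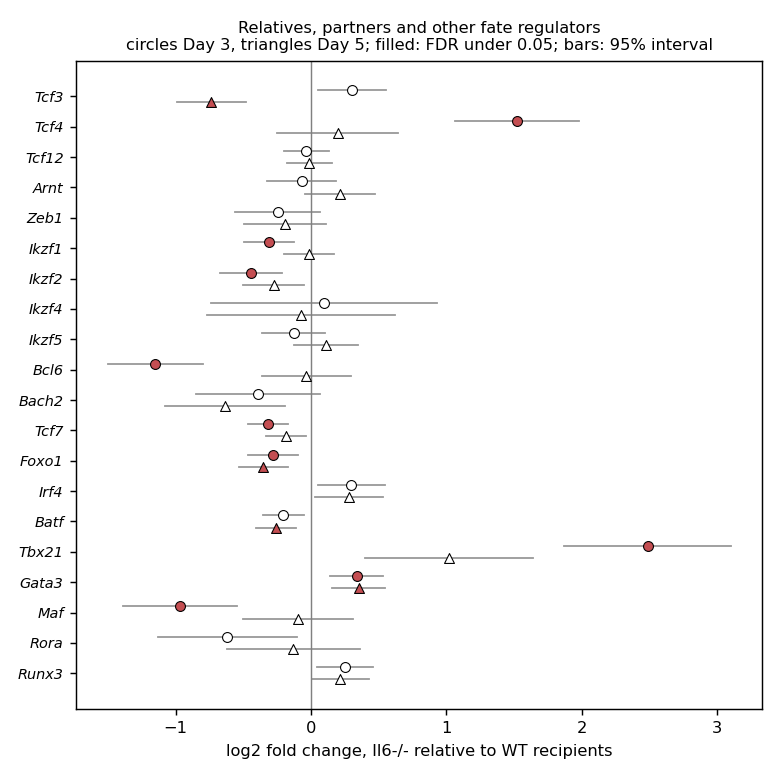
log2 difference between Il6-/- and WT hosts for 9 relatives and partners of the members and 11 of the 12 other fate regulators, on Day 3 (circles) and Day 5 (triangles), with 95% intervals (bars); filled symbols passed at an adjusted p under 0.05. Tcf3 passed on Day 5 (-0.74) and Tcf4 and Bcl6 on Day 3 (1.52 and -1.15).

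Per length of the annotated exons, Id3 was the highest member in every group, at 176 ± 10.7 RPKM (CPM per kilobase of exon) in Day 3 WT, 198 ± 13.9 in Day 3 Il6-/-, 225 ± 30.1 in Day 5 WT and 227 ± 42.4 in Day 5 Il6-/- (SD, n = 3). In Day 3 WT it was followed by Id2 (15.0 RPKM), Bhlhe40 (9.83 RPKM), Ahr (7.01 RPKM) and Ikzf3 (5.80 RPKM), and the libraries of Bhlhe40 and Ahr, and those of Ahr and Ikzf3, overlapped. In Day 3 Il6-/- the order was Bhlhe40 (21.2 RPKM), Id2 (18.3 RPKM), Ahr (14.9 RPKM) and Ikzf3 (3.71 RPKM), where Bhlhe40 and Id2, and Id2 and Ahr, overlapped. On Day 5 the order in both hosts was Id3, Id2, Bhlhe40, Ikzf3 and Ahr. Id2 stood at 62.4 RPKM in WT and 38.5 RPKM in Il6-/-, above Bhlhe40 at 20.2 and 27.2 RPKM, and Id2 and Bhlhe40 overlapped in Il6-/- hosts. Prdm1, Nfil3 and Zeb2 were the lowest members in all 4 groups. Prdm1 was above Nfil3 on Day 3 in both hosts, at 0.402 and 0.694 RPKM against 0.122 and 0.0962 RPKM. On Day 5 Prdm1 and Nfil3 overlapped in both hosts.

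Over the 12 libraries the log2 CPM of Ahr and Prdm1 had a Pearson r of 0.88 and that of Ahr and Ikzf3 an r of -0.85, as a description of 12 points that share day and host. Id2 and Id3 had an r of 0.70. Among tested genes with a mean of at least 10 CPM, those most like Id2 were Ppp1r12a, H2-M3 and B2m (r = 0.98 each), and those most like Ikzf3 were Hif1a, Ets1 and AI467606 (r = 0.99, 0.97 and 0.97). Ahr was most like Ipo4, Fam136a and Psmd5 (r = 0.98 each) and Prdm1 most like Elp2, Dhx38 and Slfn9 (r = 0.97, 0.96 and 0.96). Id3 was most like Thy1, Prpf38b and Pja2 (r = 0.93, 0.90 and 0.89). Bhlhe40 was most like Sik1, Pdcd1lg2 and Cd74 (r = 0.90, 0.89 and 0.88), of which Sik1 is a stimulus-induced kinase. Nfil3 was most like Asl and Gm36417 (r = 0.89 and 0.86), and Zeb2 most like Dnajb1, Il17rb and Sik2 (r = 0.82, 0.81 and 0.80), of which Dnajb1 is a heat shock gene of the list above. For the low genes Nfil3 and Zeb2 the r are the lowest and counting error is large.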

How the data were processed

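Polyadenylated RNA of 12 libraries (4 groups of 3) was sequenced. Per the labels and the study's methods, the authors removed adapters (Trim Galore 0.4.4), mapped to GRCm39 (STAR 2.5.2a) and took unstranded, uniquely aligned reads per gene (HTSeq 0.6.1p1). The deposited files hold these raw counts per gene symbol. Tallies of reads on no gene or on several places (non-unique 23.7% to 28.2%) were left out. A deposited table of log2 values was not used.

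Counts were tested with edgeR 4.0.16 (R 4.3.3): filterByExpr (minimum count 10), TMM, 1 coefficient per group over all 12 libraries, and the quasi-likelihood test, with Benjamini-Hochberg adjustment over 13570 genes. Comparisons were made between hosts on each day, between days in each host, and the interaction. Groups came from the sample labels. Printed CPM scale each library to its reads on tested genes times its TMM factor; RPKM divide these by exon length in GENCODE vM39, which also gave positions. No libraries were identical. With 3 against 3 an exact test cannot go below p = 0.1. Alternatives were other scalings (DESeq2 1.42.0 size factors, none), other filters, DESeq2, limma-voom (limma 3.58.1), only the groups compared, the replicate number as a block and each library left out. Same-numbered libraries deviated together on Day 5 (r = 0.24, 0.21 and 0.13), where the number is read as pairing the samples from the data, and not on Day 3 (r = 0.033, 0.060 and 0.032). The block therefore has no such basis on Day 3, where it called 2658 genes in place of 1861. The scripts were tested on simulated counts.

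The members and gene lists were chosen with earlier results of these data known. Named from the lists were genes of at least 2-fold past the threshold, plus Bcl6, Bach2, Tcf3, Tcf12, Il10 and Tiparp; 3 genes per member most like it in log2 CPM (prior count 2) were also given. The values of 3 genes that these rules name are not reported here, and their lists were counted whole. Tcf7, Arnt, Ikzf1, Ikzf2, Foxo1, Gata3, Batf, Tef, Egr1, Jun and Dnajb1 were named where they fell outside this rule, after their values were seen. The count of reads limits precision: 3 reads equal 0.117 to 0.176 CPM.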

Additional observations from a re-analysis of the deposited data

Results flagged for a closer look

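For 6 of the named genes the difference between Il6-/- and WT hosts was itself different on Day 5 and on Day 3 (edgeR interaction term, Benjamini-Hochberg adjusted over all genes). Over all genes, 1.8% passed as more positive on Day 5 and 3.12% as more negative. In the marker lists 1 NK and CD8 cell marker also passed as more negative, and 1 epithelial and stromal marker as more positive. The Day 5 log2 difference minus the Day 3 log2 difference was -0.98 for Id2 (adjusted p = 0.014), -1.04 for Tcf3 (adjusted p = 0.0053) and -1.32 for Tcf4 (adjusted p = 0.023). It was 1.12 for Bcl6 (adjusted p = 0.014), 1.55 for Cxcr5 (adjusted p = 0.0035) and 2.74 for Il21 (adjusted p = 0.018). For Id2 and Tcf3 the host difference was positive on Day 3, where it did not pass, and negative on Day 5, where it passed. For Tcf4, Bcl6, Cxcr5 and Il21 it passed on Day 3 and not on Day 5. The Tcf4 call was lost without any 1 of 6 libraries, which were Day 3 WT replicate 3, Day 5 WT replicates 1 and 2, Day 3 Il6-/- replicates 1 and 2 and Day 5 Il6-/- replicate 2 (adjusted p from 0.053 to 0.065). The Il21 call was lost with limma-voom (adjusted p = 0.090) and without Day 3 Il6-/- replicate 1 or 2 (adjusted p = 0.056 each).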

How the results depend on the processing

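Of 2600 alternative values for 132 pairs of a gene and a comparison, 2379 kept their direction and their side of the threshold, 147 lost the call, 43 gained it and 31 changed sign. On Day 3 the members past the threshold numbered 3, and 2 to 3 without any 1 library, while all genes past it numbered 1861 (942 to 2042). On Day 5 there was 1 member, and 2 without the filter on low counts, 2 with the replicate block and 0 to 2 without 1 library. All genes past the threshold on Day 5 numbered 626, against 1397 without the filter, 1127 with DESeq2, 359 with only the groups compared, 1592 with the replicate block and 225 to 1169 without 1 library. For the interaction there was 1 member, and 2 without scaling, 4 without the filter, 3 with DESeq2, 3 with the replicate block and 1 to 2 without 1 library; all genes numbered 668, against 1300 without the filter, 1132 with DESeq2, 1564 with the replicate block and 235 to 943 without 1 library. Between the days the members numbered 5 in WT (4 to 5 without 1 library) and 6 in Il6-/-, Zeb2 included (5 to 7), out of 7688 (6837 to 7783) and 8211 (7440 to 8283) genes. The replicate numbers do not pair libraries across days, and the block there took the Bhlhe40 rise in WT to an adjusted p of 0.057 and changed no other member's call. The cause of these shifts was not tested.

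Signs turned for values near 0 that did not pass: Tcf12 on Day 5 (0.013 with other size factors, 0.032 without scaling, 0.012 with DESeq2), Bcl6 on Day 5 (0.0087 without scaling) and the Prdm1 interaction (0.020 without scaling). Leaving out 1 library turned further ones, with ranges of -1.21 to 0.41 for Nfil3 and -0.49 to 0.051 for Zeb2 on Day 3, -0.13 to 0.16 for Id3, -0.055 to 0.044 for Tcf12, -0.18 to 0.14 for Bcl6, -0.024 to 0.26 for Cxcr5 and -0.45 to 0.33 for Il21 on Day 5, and -0.46 to 0.34 for Prdm1, -0.30 to 0.031 for Id3, -0.022 to 0.077 for Tcf12, -0.52 to 0.023 for Bach2 and -0.095 to 0.25 for Tiparp in the interaction. Zeb2 was not tested with a filter of more than 1 CPM in 3 libraries. Depth limits Prdm1, Nfil3, Zeb2 and Il10, which rest on few reads.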

Other observations

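Among 7 cytokine genes that these factors are known to influence, 6 could be tested. On Day 3, 1 was higher (Il10) and 2 were lower (Il21 and Il22) in Il6-/- hosts, with a median log2 difference of -0.11 beside 0.01 over all genes. Il22 passed the filter on low counts through WT libraries alone, so that its part in this count and median is no support. Il21, the follicular helper cytokine gene, stood at 26.5, 26.2 and 27.8 CPM in Day 3 WT and at 3.70, 3.82 and 3.89 CPM in Day 3 Il6-/- (log2 -2.82, SE 0.45, adjusted p = 0.00088). On Day 5 it had 17.5, 50.5 and 41.4 CPM in WT and 12.2, 41.4 and 50.4 CPM in Il6-/-, with replicate 1 the lowest in both hosts (log2 -0.07, adjusted p = 0.94). Between the days 3 of the 6 rose in WT and 4 in Il6-/-, and the others did not pass. Il2 rose in both hosts (log2 2.42 and 1.53; adjusted p = 6.3e-05 and 0.0023), as did Ifng (log2 3.23 and 2.28; adjusted p = 0.00047 and 0.0017). Il4 rose in Il6-/- hosts (log2 1.66, SE 0.46, adjusted p = 0.0060; 1.06 and 0.060 without Day 5 Il6-/- replicate 3), and in WT hosts its log2 change was -0.17 (adjusted p = 0.77).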
